A study of Mus musculus with 16 samples.

Results

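Transforming growth factor beta (TGF-β) signalling was described here through 10 genes: the ligands Tgfb1, Tgfb2 and Tgfb3, the latency protein Ltbp1, the receptors Tgfbr1, Tgfbr2 and Tgfbr3, the signal-carrying Smad2 and Smad3, and the inhibitory Smad7. The genes were taken by name, and all 10 were found among the 24984 genes of the count files. Kidney and liver of old wild-type C57BL/6 mice, labelled as 24 months of age, were profiled by RNA-seq of total RNA, with 4 libraries in each of 4 groups. The control mice carried shNT, a non-targeting short hairpin, and the treated mice carried shFOS, a hairpin against the transcription factor gene Fos. Both hairpins were delivered by intravenous AAV8, an adeno-associated virus that enters hepatocytes efficiently, and no uninjected or young group was part of these 16 libraries. The study's methods give the labelled age as that at injection, with collection some months later. The labels number the replicates but do not say that each library came from a separate mouse, so p-values measure the spread between these libraries.

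TGF-β is secreted as a latent complex, held by its own propeptide and by a latent TGF-β binding protein that docks it in the extracellular matrix, and integrins can release it. The active ligand brings the type II receptor to the type I receptor, which phosphorylates Smad2 and Smad3. These enter the nucleus with Smad4 and switch on genes of matrix, cytoskeleton and growth arrest, among them Smad7, which returns to shut down the receptor. In kidney and liver the pathway is best known for its part in fibrosis.

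Counted reads per library ranged from 14194543 to 15534665 in kidney and from 16652150 to 18300277 in liver. Levels are normalised read counts per 1e6 reads (CPM), scaled within a tissue, and differences are log2 fold changes of shFOS over shNT from the quasi-likelihood test of edgeR, with p adjusted after Benjamini and Hochberg (BH) over 14892 genes in kidney and 13144 in liver. Tissue labels held: 6 tubule markers summed to 11035 to 17167 CPM in kidney and to at most 2.33 CPM in liver, and 5 hepatocyte markers summed to 42189 CPM or more in liver and to at most 670 CPM in kidney. The liver shNT replicate 4 stood apart, with the lowest hepatocyte sum of 42189 CPM against 109680 to 186372 in the other liver libraries, and the kidney shNT replicate 4 differed most from its group. The kidney shFOS replicate 1 also stood apart in podocyte markers, which summed to 345 CPM against 629 to 720 in the other 3 shFOS libraries. Fos, the target of the hairpin, was measured at 6.70, 5.25, 4.23 and 5.28 CPM in kidney shNT and at 2.57, 4.12, 3.93 and 2.30 CPM in kidney shFOS, without overlap (log2 difference -0.73 ± 0.25 SE, adjusted p = 0.0947 by edgeR). Such a lower level without overlap held for 8.04% of all genes in kidney. In liver Fos stood at 1.12 to 3.69 CPM in shNT and 1.37 to 2.76 CPM in shFOS (-0.47 ± 0.38, adjusted p = 0.775 by edgeR), so the groups overlapped. In neither tissue was the adjusted p under 0.05 by edgeR, while DESeq2 called Fos in kidney (-0.74, adjusted p = 0.0449), beside 17.9% of all genes. The study itself reported lower Fos in both tissues by RT-qPCR.

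No pathway gene passed the adjusted threshold for shFOS against shNT in either tissue, and neither did any other gene, so 0% of genes were called in kidney and 0% in liver. At an unadjusted p under 0.05, edgeR found 2 of the 10 genes in kidney (Smad2 and Smad7), where 32% of all genes passed, and 1 of 10 in liver (Smad7), where 6.82% passed. DESeq2, run on the same counts, called 1 of the 10 in kidney (Smad2), where it called 17.9% of all genes, and 0 of the 10 in liver, where it called 0.274%. In kidney 7 of the 10 genes were higher and 3 lower in shFOS, with a median log2 difference of 0.04 against 0.0023 for all genes. In liver 6 were higher and 4 lower, with a median of 0.16 against -0.01. The count in kidney was therefore below the share over all genes. Smad7 had the smallest p of the 10 in liver and differed in opposite directions in the tissues.

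**Figure D1:**
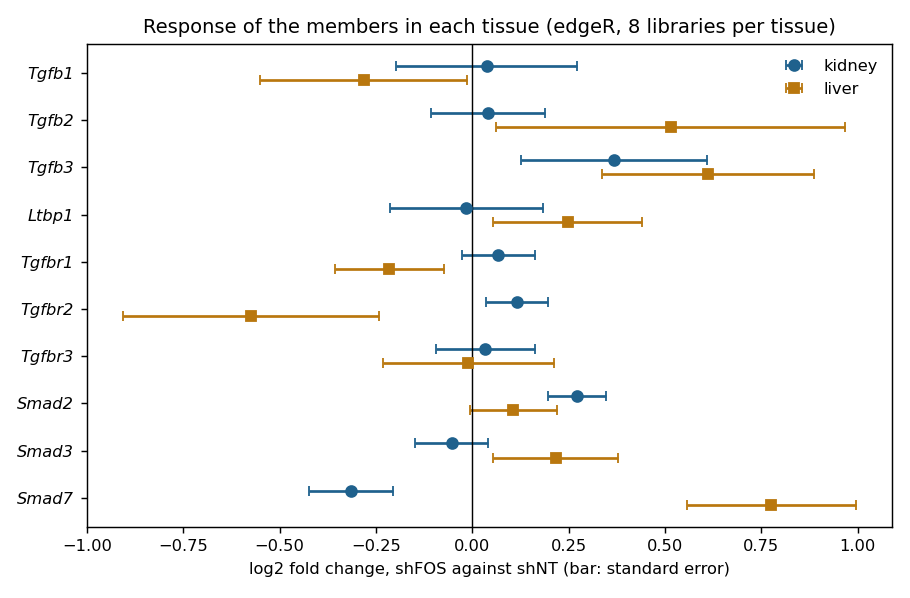
Log2 fold change of shFOS over shNT for each of the 10 genes (horizontal axis) in kidney (circles) and liver (squares), with the standard error as the bar, from 8 libraries per tissue. Smad7 lies at -0.31 in kidney and 0.78 in liver, and the kidney and liver bars of Tgfb3 both lie above 0.

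The 3 ligands differ in where they are made: Tgfb1 is the form of immune cells, platelets and endothelium, while Tgfb2 and Tgfb3 are made more by epithelium and mesenchyme. Tgfb1 lies at chr7:25687002-25705077 on the mm10 build (ENSMUSG00000002603.15, 7 exons in the transcript used for length), Tgfb2 at chr1:186622792-186705989 (ENSMUSG00000039239.14) and Tgfb3 at chr12:86056745-86079041 (ENSMUSG00000021253.7). The upstream sequences of Tgfb1 and Tgfb2 are shown because the shares of these ligands differed most between the tissues, and that of Ltbp1 because its window holds a cyclic AMP element, a site of CREB and of Jun paired with ATF factors. They are the 250 bases before the transcription start in RefSeq on GRCm38.p6, 5′ to 3′, with motif letters in capitals. Tgfb1 lies on the plus strand at chr7:25686752-25687001, Tgfb2 on the minus strand at chr1:186705990-186706239, and Ltbp1 on the plus strand at chr17:75005279-75005528.
Tgfb1: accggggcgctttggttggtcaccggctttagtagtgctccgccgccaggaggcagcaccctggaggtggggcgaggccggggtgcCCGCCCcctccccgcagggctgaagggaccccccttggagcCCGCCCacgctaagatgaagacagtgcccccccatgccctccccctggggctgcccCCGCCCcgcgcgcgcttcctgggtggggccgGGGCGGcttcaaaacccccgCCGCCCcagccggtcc
Tgfb2: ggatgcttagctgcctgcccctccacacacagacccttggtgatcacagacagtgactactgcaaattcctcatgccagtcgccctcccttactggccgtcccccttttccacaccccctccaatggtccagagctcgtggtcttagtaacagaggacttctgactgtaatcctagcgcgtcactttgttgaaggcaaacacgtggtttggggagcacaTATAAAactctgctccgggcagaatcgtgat
Ltbp1: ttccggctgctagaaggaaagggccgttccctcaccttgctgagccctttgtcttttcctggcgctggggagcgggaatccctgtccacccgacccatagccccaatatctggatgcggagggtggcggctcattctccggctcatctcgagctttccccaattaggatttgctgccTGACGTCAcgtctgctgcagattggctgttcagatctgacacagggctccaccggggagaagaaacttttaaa

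The capitals mark GC boxes (GGGCGG, or CCGCCC on the other strand) in Tgfb1, a TATA box (TATAAA) in Tgfb2 and a cyclic AMP element (TGACGTCA) in Ltbp1. Motifs were sought on both strands in windows of 300 bases, 250 before and 50 after the start. The Tgfb1 window held 6 GC boxes, 5 of them in the stretch shown, no TATA box, and 77% G and C. The Tgfb2 window held a TATA box 31 bases before the start, no GC box, and 54.3% G and C. Of all 32851 promoter windows in the table, 35.7% held a GC box, 13.6% a TATA box and 1.79% the cyclic AMP element, which in Ltbp1 began 73 bases before the start. The RefSeq table matched 8 windows of 6 of the 10 genes (Tgfb1, Tgfb2, Ltbp1, Tgfbr1, Tgfbr2 and Smad3). The AP-1 heptamer was sought as TGANTCA with N as any base, which is wider than the site bound by Fos and Jun dimers. It was in none of these 8 and in 7.81% of all windows. The Smad palindrome GTCTAGAC was in none of the 8 and in 0.213% of all.

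Tgfb1 had the highest level of the 3 ligands in every library and did not differ detectably between shFOS and shNT. In kidney it was measured at 41.5, 51.2, 41.8 and 21.8 CPM in shNT and at 34.0, 49.9, 37.9 and 38.6 CPM in shFOS. The low shNT value belongs to replicate 4, which also had the lowest macrophage sum (208 CPM against 324 to 588 in the other kidney libraries) and the lowest lymphocyte sum (13.7 against 38.7 to 133); the part of these cells was not tested. The kidney log2 difference was 0.04 ± 0.23 (SE; adjusted p = 0.926 by edgeR). In liver Tgfb1 stood at 10.8, 17.6, 29.96 and 16.8 CPM in shNT and at 15.4, 17.0, 16.8 and 12.7 CPM in shFOS, with a log2 difference of -0.28 ± 0.27 (adjusted p = 0.806 by edgeR). The highest liver value was replicate 3 of shNT, in which the 6 macrophage markers summed to 1165 CPM against 225 to 514 in the other liver libraries. Without that library the liver difference was 0.04. In a bulk tissue, fewer cells of a type and less RNA per cell cannot be told apart.

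Tgfb2 was sparse in liver, with 8 to 34 reads per library, and the values there rest on few counts. Liver shNT held 0.857, 1.33, 1.46 and 0.423 CPM and liver shFOS held 0.617, 1.72, 1.99 and 1.49 CPM, which overlap (log2 difference 0.51 ± 0.45, adjusted p = 0.790 by edgeR). Kidney libraries lay between 9.005 and 13.2 CPM in all 8 cases, with a log2 difference of 0.04 ± 0.15 (adjusted p = 0.867 by edgeR).

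Tgfb3, like Tgfb2, had a higher mean in shFOS in both tissues, without passing the test in either. In liver it was measured at 1.45, 1.79, 2.60 and 2.01 CPM in shNT and at 3.42, 3.89, 2.70 and 2.03 CPM in shFOS. Of the shFOS values, 3 lay above every shNT value and replicate 4 lay among them. The liver log2 difference was 0.61 ± 0.27 (unadjusted p = 0.0521 and adjusted p = 0.726 by edgeR), and an exact two-sided permutation test of the means over 70 assignments gave p = 0.0571. In kidney the values were 5.71, 5.32, 4.82 and 3.80 CPM in shNT and 5.27, 9.30, 5.57 and 5.22 CPM in shFOS. The kidney difference of 0.37 ± 0.24 (adjusted p = 0.320 by edgeR) came down to 0.13 without shFOS replicate 2.

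The make-up of the ligand pool was taken as each ligand's share of the reads per kilobase of the 3 together, a quantity that does not depend on the scaling between libraries. The shares were not corrected for GC content, which is 62.5% in the Tgfb1 transcript, 46.9% in that of Tgfb2 and 53.0% in that of Tgfb3. In liver the pool was less dominated by Tgfb1 after shFOS. The Tgfb1 share was 89.3%, 91.1%, 92.9% and 92.0% in liver shNT and 86.2%, 84.1%, 86.7% and 86.8% in liver shFOS, so every shNT library lay above every shFOS library. Their means were 91.3% ± 1.53 and 85.9% ± 1.26 (SD, n = 4 each), a difference of -5.39 percentage points (exact permutation p = 0.0286, the smallest this design can give, and 0.0857 after BH adjustment over the 6 shares tested). The Tgfb3 share ran the other way, at 7.70%, 5.95%, 5.18% and 7.06% in shNT and 12.3%, 12.3%, 8.96% and 8.90% in shFOS. It was 4.16 points higher in shFOS (exact permutation p = 0.0286, adjusted 0.0857), again with no overlap. The shares of a library make up the whole, and Tgfb2 held only 0.983% to 4.38% of it in liver. The Tgfb3 result is therefore not separate from that of Tgfb1. The liver Tgfb2 share moved by 1.24 points (exact permutation p = 0.200, adjusted 0.3). Without liver shNT replicate 4 the differences were -5.18 points for Tgfb1 and 4.35 points for Tgfb3. After adjustment neither liver share passed the threshold. Platelet markers (Pf4, Itga2b and Ppbp), from cells rich in Tgfb1, summed to 11.5 to 29.8 CPM in liver shNT and 6.10 to 7.85 CPM in liver shFOS, and 7 fibroblast and stellate cell markers summed to 97.5 to 151 and 145 to 184 CPM. Their part in the shares was not tested.

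In kidney the shares overlapped between shNT and shFOS: Tgfb1 made up 82.5% ± 4.11 and 82.0% ± 1.20, Tgfb2 10.5% ± 2.88 and 9.81% ± 1.23, and Tgfb3 6.99% ± 1.27 and 8.21% ± 1.09 (SD, n = 4 each). The kidney Tgfb1 differences between treatments gave an exact permutation p of 0.771, as did Tgfb2, and Tgfb3 gave 0.200.

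**Figure D2:**
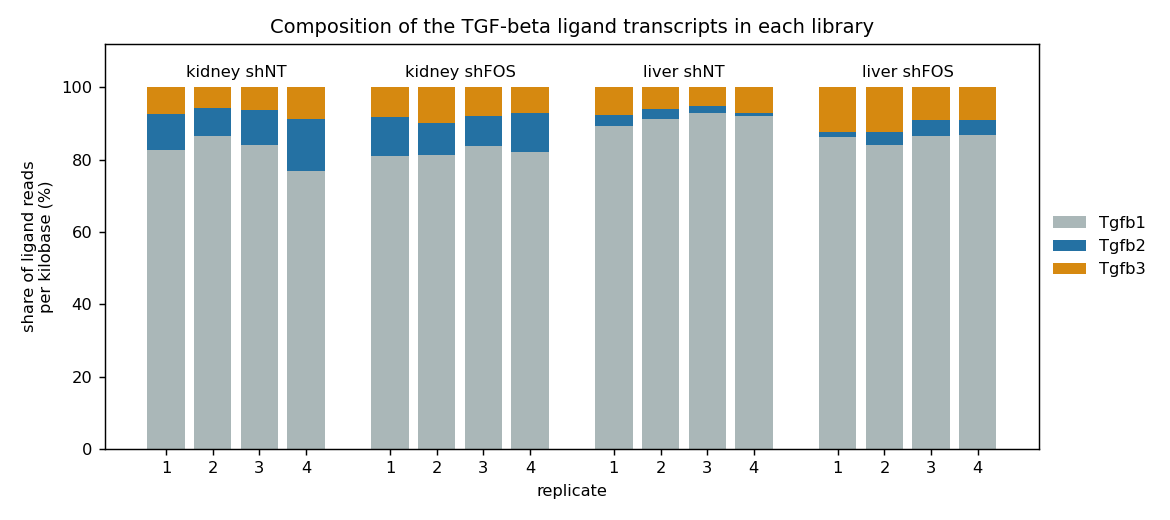
Share of Tgfb1, Tgfb2 and Tgfb3 in the summed ligand reads per kilobase (vertical axis, percent) in each of the 16 libraries, with replicates along the horizontal axis. Tgfb1 takes 89.3% to 92.9% in liver shNT and 84.1% to 86.8% in liver shFOS, and Tgfb2 takes 7.64% to 14.5% in kidney and 0.983% to 4.38% in liver.

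Ltbp1, at chr17:75005568-75392512 (ENSMUSG00000001870.16, 34 exons), encodes the matrix protein that holds latent TGF-β. Its values in kidney were 24.9, 30.1, 31.0 and 18.5 CPM in shNT and 33.6, 26.6, 20.2 and 22.8 CPM in shFOS, with a log2 difference of -0.02 ± 0.20 (adjusted p = 0.967 by edgeR). The spread inside each kidney group was wider than the gap between the group means. Liver libraries lay between 4.28 and 7.16 CPM, with a log2 difference of 0.25 ± 0.19 (adjusted p = 0.773 by edgeR).

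The receptors showed no detectable difference between shFOS and shNT in either tissue. Tgfbr1, the type I receptor kinase (chr4:47353222-47414931, ENSMUSG00000007613.15), stood at 80.8, 66.6, 66.0 and 77.4 CPM in kidney shNT and at 71.1, 72.3, 81.4 and 80.0 CPM in kidney shFOS (log2 difference 0.07 ± 0.09, adjusted p = 0.649 by edgeR). Liver Tgfbr1 lay between 22.4 and 31.2 CPM in shNT and between 20.5 and 28.6 CPM in shFOS (-0.22 ± 0.14, adjusted p = 0.749 by edgeR). Both tissues overlapped for this gene.

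Tgfbr2, the ligand-binding type II kinase (chr9:116084293-116175360, ENSMUSG00000032440.13), was the most abundant of the 10 genes in kidney CPM before correction for length. Kidney shNT held 115, 110, 118 and 100 CPM and kidney shFOS held 119, 125, 124 and 113 CPM (0.12 ± 0.08, adjusted p = 0.348 by edgeR). In liver the shNT libraries ran from 14.4, 16.9 and 28.4 to 43.2 CPM, and shFOS held 16.6, 19.3, 20.8 and 12.6 CPM. The 43.2 CPM belongs to the replicate with the lowest hepatocyte sum. The liver log2 difference was -0.57 ± 0.33 (adjusted p = 0.737 by edgeR) and -0.22 without that library.

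Tgfbr3 encodes betaglycan, the co-receptor that presents ligand, above all Tgfb2, to the type II receptor (chr5:107106570-107289629, ENSMUSG00000029287.14). Kidney shNT held 36.5, 39.1, 38.7 and 52.0 CPM and kidney shFOS held 49.4, 40.5, 40.5 and 39.6 CPM, so that each group had a single library well above its other 3. The log2 difference was 0.03 ± 0.13 in kidney (adjusted p = 0.876) and -0.01 ± 0.22 in liver (adjusted p = 0.995; both by edgeR). Liver levels lay between 5.46 and 10.6 CPM, and the highest was again shNT replicate 4, without which the liver difference was 0.23.

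Among the Smads, Smad2 was higher in every kidney shFOS library than in any kidney shNT library, by a small margin. Smad2 (chr18:76241580-76310963, ENSMUSG00000024563.16) was measured at 31.8, 29.97, 31.4 and 33.6 CPM in kidney shNT and at 36.0, 39.7, 39.3 and 38.1 CPM in kidney shFOS. The log2 difference was 0.27 ± 0.07 (unadjusted p = 0.00522, adjusted p = 0.0678 by edgeR), and an exact two-sided permutation test gave p = 0.0286. Such a lack of overlap was common in kidney, where it held for 17.2% of all genes, 9.16% higher and 8.04% lower in shFOS. DESeq2 called the gene (0.26, adjusted p = 0.0282), and so did edgeR without the kidney shFOS replicate 1 (0.26, adjusted p = 0.0363), a fit that called 27.8% of all genes. With a correction for the GC content of each gene the difference was 0.14 (adjusted p = 0.224 by edgeR), and with GC content and length it was 0.05 (adjusted p = 0.641 by edgeR). In liver the Smad2 values lay between 15.4 and 18.3 CPM in shNT and 15.7 and 20.1 CPM in shFOS (0.11 ± 0.11, adjusted p = 0.822 by edgeR).

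Smad3 (chr9:63646767-63757994, ENSMUSG00000032402.12), which unlike the main form of Smad2 binds DNA directly, did not differ detectably. Kidney shNT held 67.1, 71.1, 72.0 and 56.6 CPM and kidney shFOS held 60.2, 66.6, 67.5 and 62.8 CPM (-0.05 ± 0.09, adjusted p = 0.720 by edgeR). Liver shNT held 14.04, 14.8, 16.9 and 11.5 CPM and liver shFOS held 13.2, 16.6, 20.3 and 16.4 CPM (0.22 ± 0.16, adjusted p = 0.767 by edgeR). All of these ranges overlapped.

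Smad7 had opposite differences in kidney and liver, and in each of them its groups did not overlap. Smad7 (chr18:75367529-75395935, ENSMUSG00000025880.11) recruits ubiquitin ligases to the active type I receptor and is itself a direct target of Smad signalling. In kidney it was measured at 30.2, 27.9, 26.4 and 26.3 CPM in shNT and at 25.2, 24.0, 19.4 and 20.4 CPM in shFOS. Every shFOS library thus lay below every shNT library. The kidney log2 difference was -0.31 ± 0.11 (unadjusted p = 0.0170, adjusted p = 0.0934 by edgeR), and the exact two-sided permutation p was 0.0286. By p it ranked only 2703 among the 14892 genes tested in kidney. Of these genes, 17.2% had groups that did not overlap, 9.16% higher and 8.04% lower in shFOS. In liver the values were 8.37, 11.8, 10.9 and 6.93 CPM in shNT and 12.1, 16.4, 15.1 and 21.5 CPM in shFOS. There every shFOS library lay above every shNT library, with group means of 9.51 ± 2.26 and 16.3 ± 3.92 CPM (SD, n = 4 each). The liver difference of 0.78 ± 0.22 corresponds to a 1.71-fold higher level (unadjusted p = 0.00604, adjusted p = 0.702 by edgeR, exact permutation p = 0.0286). It had the rank of 95 by p among the 13144 genes tested in liver, of which 4.31% had groups that did not overlap, 2.79% higher and 1.52% lower in shFOS.

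The kidney value of Smad7 passed the threshold without the shFOS replicate 1 (-0.42, adjusted p = 0.0246 by edgeR), in a fit that called 27.8% of all genes. Of 17 other ways of processing, only this 1 called it, and DESeq2 did not (-0.32, adjusted p = 0.0648). The kidney value was -0.15 with a GC correction (adjusted p = 0.296 by edgeR). The liver value lay between 0.61 and 0.90 over 17 other ways of processing the data, none of which called it. The closest pair of liver libraries was shNT replicate 2 at 11.8 CPM and shFOS replicate 1 at 12.1 CPM.

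The difference between the tissues was tested itself, as an interaction term over all 16 libraries. For Smad7 the kidney response minus the liver response was -1.11 ± 0.26 on the log2 scale (unadjusted p = 0.000600, adjusted p = 0.180 by edgeR), with the rank of 47 among 15421 genes. No gene passed the adjusted threshold in that fit (0%), while 16.1% had an unadjusted p under 0.05. DESeq2 called the Smad7 interaction (-1.08, adjusted p = 0.0176) among 1.83% of genes, and edgeR called it without kidney shFOS replicate 1 (-1.14, adjusted p = 0.0209) among 7.88%. An exact permutation of the treatment within both tissues, with 4900 joint assignments, gave p = 0.000408, the smallest it can give, for a difference of -1.09 on the log2 scale. That count takes the kidney and liver libraries as independent. If same-numbered libraries of a group came from the same mouse, 70 assignments remain, and the exact permutation p is 0.0286, again the smallest possible. With the replicate block the interaction was -1.11 (adjusted p = 0.139 by edgeR). For the other 9 genes the exact permutation p of the same difference lay between 0.114 (Tgfbr1) and 0.966 (Tgfbr3) over the 4900 assignments, and between 0.0571 (Smad3) and 0.971 (Tgfbr3) over the 70. The interaction of Smad7 kept its sign in 24 of 24 other ways of processing, from -1.23 to -0.90, but only 2 of the 24 called it. Its adjusted p by edgeR was 0.162 without liver shNT replicate 4 and at most 0.326, without kidney shFOS replicate 4.

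**Figure D3:**
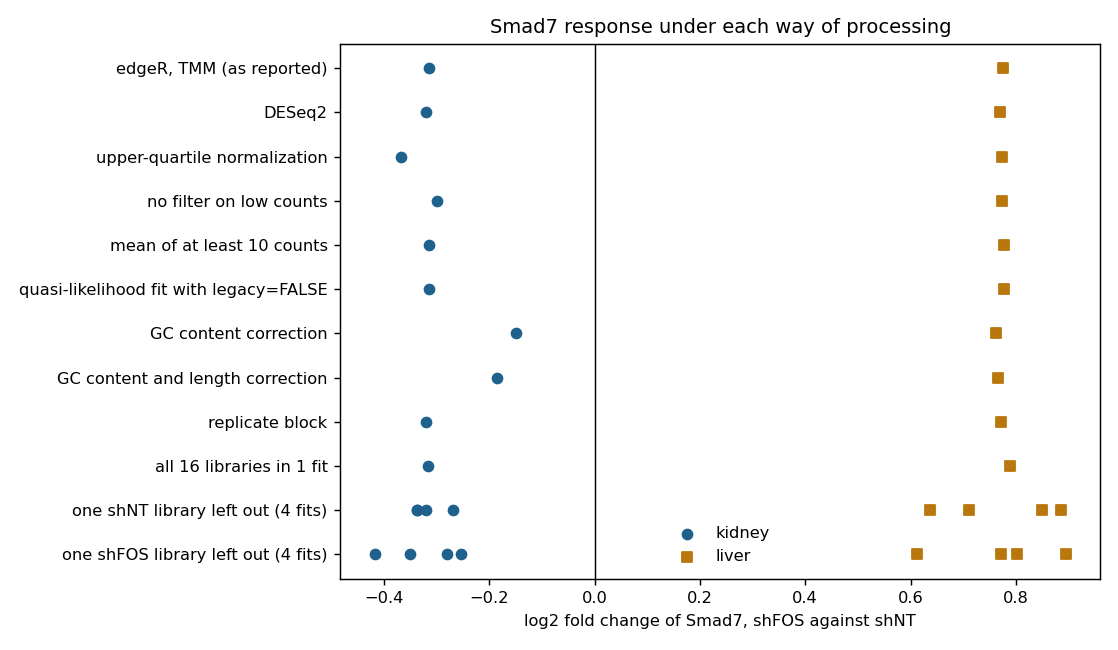
Log2 fold change of Smad7, shFOS over shNT (horizontal axis), in kidney (circles) and liver (squares) under each way of processing, with 4 fits on each of the lowest 2 lines. Kidney values lie between -0.42 and -0.15 and liver values between 0.61 and 0.90, so the tissues stay on opposite sides of 0.

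**Figure D4:**
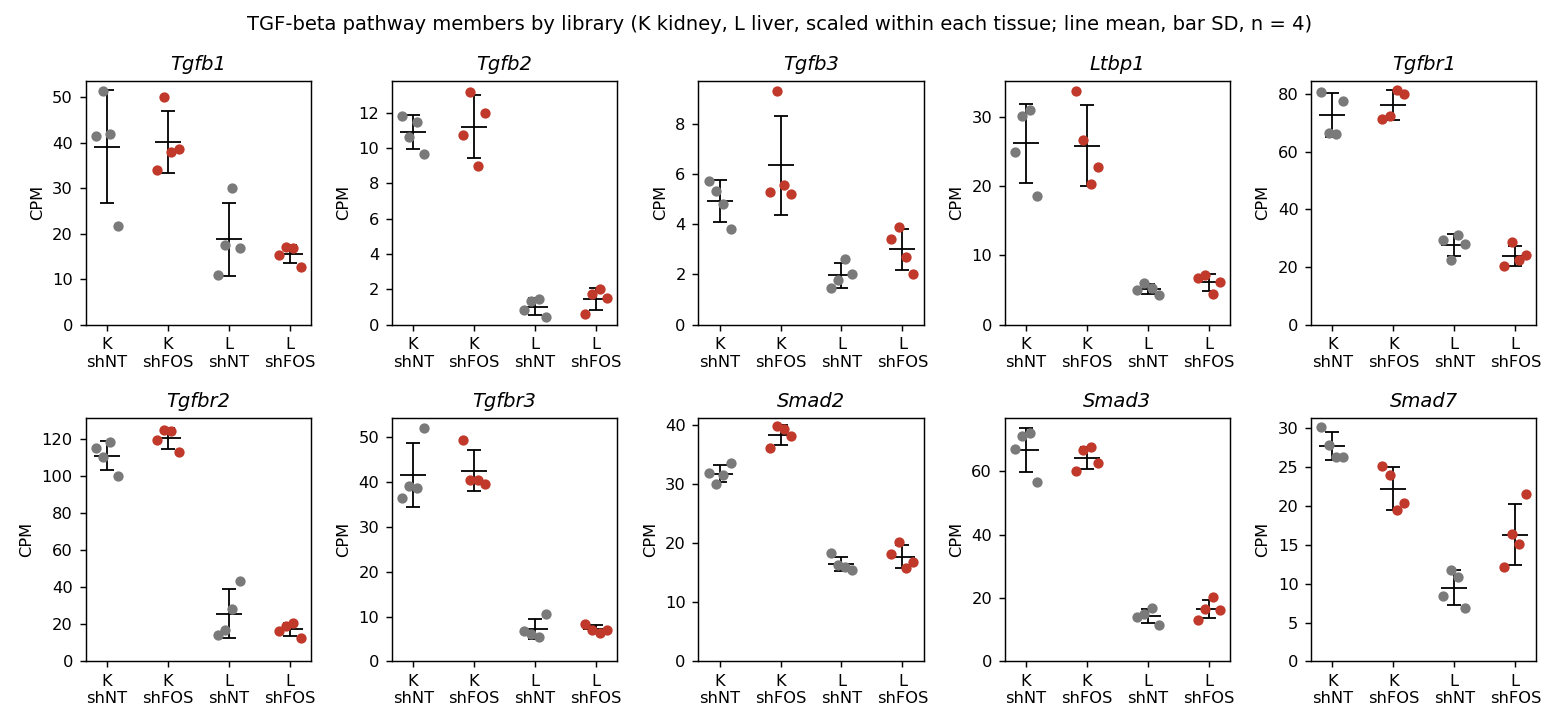
Normalised read count (CPM, vertical axis, from 0) of each gene in every library of kidney (K) and liver (L), grey for shNT and red for shFOS, with the mean as a line and the SD as the bar (n = 4). CPM was scaled within each tissue, so levels of the 2 tissues are not on a common scale. Smad2 and Smad7 in kidney and Smad7 in liver are the panels whose treatment groups do not overlap.

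The levels of the genes were compared on a scale common to the 16 libraries and per kilobase of the longest protein-coding transcript in the annotation used. In kidney shNT the order was Tgfb1 at 12.7 ± 3.87 CPM per kilobase (SD, n = 4), Tgfbr2 at 9.71 ± 0.613, Smad3 at 9.28 ± 0.862 and Tgfbr1 at 8.96 ± 1.01, which overlapped each with the next. Below them came Tgfbr3 at 4.84 ± 0.905 and Smad7 at 4.59 ± 0.274, which overlapped, then Smad2 at 2.78 ± 0.175 and Ltbp1 at 2.77 ± 0.579, which overlapped, and last Tgfb2 at 1.51 ± 0.1205 and Tgfb3 at 1.03 ± 0.161, which did not. In liver shNT Tgfb1 again stood highest at 12.2 ± 5.20 CPM per kilobase and Tgfb2 lowest at 0.279 ± 0.130. Between them Tgfbr1 (6.78 ± 0.920), Tgfbr2 (4.48 ± 2.31), Smad3 (3.95 ± 0.606), Smad7 (3.13 ± 0.743) and Smad2 (2.86 ± 0.203) each overlapped with the next, and Tgfbr3 (1.67 ± 0.545), Ltbp1 (1.09 ± 0.153) and Tgfb3 (0.817 ± 0.202) did so at a lower level. After shFOS the liver order put Smad7 at 5.41 ± 1.33, above Smad3 at 4.63 ± 0.779 with overlapping values.

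On the common scale the kidney held more transcript of the receptors and of Smad3 than the liver. Of the 10 genes, 7 were called between kidney shNT and liver shNT by edgeR at an adjusted p under 0.05, all 7 higher in kidney. Of all genes 64.7% were called, 34.5% higher and 30.2% lower in kidney, and 67.7% had an unadjusted p under 0.05. The log2 differences, kidney over liver, were 2.42 ± 0.34 for Tgfb2 (adjusted p = 1.15e-05), 1.53 ± 0.19 for Tgfbr3 (3.41e-06), 1.35 ± 0.21 for Ltbp1 (2.90e-05), 1.23 ± 0.13 for Smad3 (4.87e-07), 1.11 ± 0.26 for Tgfbr2 (0.00120), 0.55 ± 0.18 for Smad7 (0.0152) and 0.40 ± 0.12 for Tgfbr1 (0.00866), all adjusted p by edgeR. Betaglycan and its preferred ligand Tgfb2 had the largest differences of the 10. Tgfb1 (0.06 ± 0.27, adjusted p = 0.865), Tgfb3 (0.32 ± 0.27, adjusted p = 0.2996) and Smad2 (-0.04 ± 0.09, adjusted p = 0.698) did not pass edgeR's test. The ligand pool of shNT mice held 8.28 percentage points more Tgfb2 in kidney than in liver, and the Tgfb1 share differed by -8.79 points (exact permutation p = 0.0286 for each, and 0.0571 for Tgfb1 without liver shNT replicate 2, 3 or 4), while Tgfb3 differed by 0.510 points (exact permutation p = 0.571). Since the shares of a library make up the whole, the Tgfb1 and Tgfb2 differences are bound together.

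These tissue levels depend on the scaling, since a few hepatocyte transcripts take a large share of the liver reads. With library totals in place of TMM the median of all genes was 1.10 rather than 0.05, and Tgfb1 stood at 1.07, Tgfb3 at 1.35 and Smad2 at 1.01 (adjusted p = 0.00372, 0.000490 and 9.18e-08 by edgeR), so Tgfb1 and Smad2 then lay below the median gene and Tgfb3 above it. Smad7 was not called with a GC correction (0.25, adjusted p = 0.212 by edgeR). Between the shFOS groups the tissue difference of Smad7 was turned round, at -0.56 (adjusted p = 0.0135 by edgeR), while the other 6 called genes stayed higher in kidney.

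Pathway genes beyond the 10 were read from 5 further lists with 66 genes in all. These lists and the marker lists were compiled with earlier results of these data known. Their counts beside the shares of all genes are therefore a description and not a test. In kidney 44 of 66 were higher and 22 lower in shFOS, with a median log2 difference of 0.14 against 0.0023 for all genes, and 11 higher and 5 lower ones had an unadjusted p under 0.05 in edgeR, against 17.1% and 14.9% of all genes. In liver 63 genes were tested, with a median of 0.04. There 9 higher genes and 1 lower gene had an unadjusted p under 0.05 in edgeR, against 3.6% and 3.23% of all genes. None had an adjusted p under 0.05 by edgeR in either tissue. In kidney 5 higher and 2 lower ones had groups that did not overlap, beside 9.16% and 8.04% of all genes. In liver 6 higher and 1 lower did so, beside 2.79% and 1.52% of all genes.

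In kidney the largest difference was that of Itgb8, the β chain of the integrin αvβ8 that activates latent TGF-β. It was measured at 18.9, 10.2, 14.2 and 7.15 CPM in shNT and at 15.99, 71.1, 85.9 and 87.9 CPM in shFOS (log2 difference 2.37 ± 0.50, adjusted p = 0.0650 by edgeR). Its shFOS replicate 1 lay among the shNT values, and this was the library in which podocyte markers summed to 345 CPM, among the 266 to 403 CPM of shNT. Without it the Itgb8 difference was 2.65 (adjusted p = 0.00110 by edgeR), in a fit that called 27.8% of all genes. Without shNT replicate 4 it was 2.18 (adjusted p = 0.0883 by edgeR). DESeq2 called Itgb8 with all libraries (2.36, adjusted p = 9.08e-05), beside 17.9% of all genes. The part of podocytes was not tested. Itgav, the partner chain, was higher in every shFOS library, at 147, 192, 167 and 217 CPM against 144, 120, 144 and 123 CPM (0.44 ± 0.13, adjusted p = 0.0732 by edgeR), and its difference was 0.28 with a GC correction. Lrrc32, which tethers latent TGF-β to the cell surface, stood at 45.5, 64.1, 56.4 and 39.7 CPM in shNT and at 42.6, 39.5, 40.7 and 34.8 CPM in shFOS (-0.38 ± 0.15, adjusted p = 0.119 by edgeR), and its difference was -0.16 with that correction.

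Receptors of the bone morphogenetic protein branch were also measured. Bmpr1a, a type I receptor of that branch, was higher in every kidney shFOS library, at 84.9, 101, 114 and 112.2 CPM against 77.3, 69.4, 74.9 and 78.4 CPM (0.46 ± 0.10, adjusted p = 0.0650 by edgeR), and 0.26 with a GC correction. Bmpr2, its type II partner, had a difference of 0.26 ± 0.10 (adjusted p = 0.128 by edgeR), which was 0.06 with the GC correction. Acvrl1, the type I receptor of endothelium, had -0.24 ± 0.15 (adjusted p = 0.293 by edgeR), and -0.08 with it. The 6 endothelial markers summed to 268 to 348 CPM in kidney shNT and to 395 to 455 CPM in kidney shFOS, and their part in these values was not tested. Among the other Smads, Smad4 (0.19 ± 0.11), Smad5 (0.13 ± 0.09) and Smad9 (0.08 ± 0.30) had adjusted p of 0.248, 0.337 and 0.878 by edgeR.

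Of 14 regulators of the Smads, 4 were higher and 2 lower in kidney at an unadjusted p under 0.05, beside 17.1% and 14.9% of all genes. Trim33, a ubiquitin ligase that acts on Smad4, stood at 38.4, 46.5, 50.9 and 49.3 CPM in shFOS against 36.6, 31.2, 35.9 and 34.2 CPM in shNT (0.42 ± 0.10, adjusted p = 0.0650 by edgeR), and its difference was 0.26 with a GC correction. Smurf2, a ligase that Smad7 brings to the receptor, stood at 71.4, 94.1, 82.8 and 100 CPM against 70.4, 63.8, 68.9 and 59.2 CPM (0.41 ± 0.12, adjusted p = 0.0692 by edgeR), and its difference was 0.25 with GC content and length corrected. Tgif2, a repressor that binds Smads, ran the other way, at 5.65, 3.19, 3.36 and 3.15 CPM against 7.29, 7.21, 6.44 and 6.76 CPM (-0.85 ± 0.22, adjusted p = 0.0650 by edgeR). For these 3 genes the shFOS and shNT values did not overlap, beside 17.2% of all genes in kidney. DESeq2 called all 3, beside 17.9% of all genes. The remaining genes of the 6, named after their values were seen, were Usp15 (0.29), Zfyve9 (0.28) and Tgif1 (-0.34).

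Of 25 known target genes, 18 had a higher and 7 a lower fitted level in kidney shFOS, and the 3 higher and 2 lower ones with an unadjusted p under 0.05 stand beside 17.1% and 14.9% of all genes. Ccn2, a matrix-associated growth factor gene induced by TGF-β, was at 135, 132, 116 and 118 CPM in shNT and at 133, 241, 236 and 203 CPM in shFOS (0.69 ± 0.17, adjusted p = 0.0650 by edgeR). Again shFOS replicate 1 lay with the shNT libraries. Without it the Ccn2 difference was 0.81 (adjusted p = 0.00173 by edgeR), in a fit that called 27.8% of all genes. Without shNT replicate 4 it was 0.67 (adjusted p = 0.0893 by edgeR). Tgm2, a crosslinking enzyme of the matrix, had 0.42 ± 0.16 (adjusted p = 0.106 by edgeR). Id3, an inhibitor of differentiation that responds to the bone morphogenetic branch, was lower in every shFOS library, at 44.4, 45.7, 46.5 and 42.3 CPM against 60.8, 56.4, 47.8 and 52.9 CPM (-0.29 ± 0.09, adjusted p = 0.0797 by edgeR), and -0.15 with a GC correction. Timp3 (0.52) and Id1 (-0.51), named after their values were seen, completed these 5 targets.

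Of 13 latency genes tested in liver, 3 were higher at an unadjusted p under 0.05, beside 3.6% of all genes, and the same 3 did not overlap between the groups, beside 2.79% of all genes that were higher without overlap. All 3 belong to the latent TGF-β binding protein family. Ltbp4 was measured at 43.8, 40.005, 46.9 and 18.2 CPM in shNT and at 62.4, 61.3, 75.3 and 60.6 CPM in shFOS (0.80 ± 0.26, adjusted p = 0.702 by edgeR). Ltbp2, a matrix protein of the same family, stood at 1.98, 2.25, 2.03 and 0.952 CPM and at 3.70, 2.72, 3.52 and 3.17 CPM (0.86 ± 0.28, adjusted p = 0.702 by edgeR). Ltbp3 stood at 3.49, 4.04, 3.38 and 3.75 CPM and at 4.597, 4.94, 6.39 and 4.18 CPM (0.46 ± 0.18, adjusted p = 0.713 by edgeR). The lowest Ltbp4 and Ltbp2 values were those of shNT replicate 4, and the lowest Ltbp3 value was that of another library. Without shNT replicate 4 the differences were 0.56 for Ltbp4, 0.64 for Ltbp2 and 0.45 for Ltbp3.

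Of 24 targets tested in liver, 17 were higher and 7 lower in shFOS. At an unadjusted p under 0.05 by edgeR there were 5 higher and 1 lower, beside 3.6% and 3.23% of all genes. Groups of 3 higher targets did not overlap, beside 2.79% of all genes. The 3 targets with the smallest p were Timp3, Acta2 and Sparc. Timp3, an inhibitor of metalloproteases, was at 22.9, 20.9, 26.6 and 27.9 CPM in shNT and at 32.97, 35.03, 43.5 and 34.3 CPM in shFOS (0.57 ± 0.13, adjusted p = 0.685 by edgeR). Acta2, the smooth muscle actin of activated stellate cells and vessel walls, was at 1.78, 4.73, 4.63 and 5.24 CPM and at 13.0, 13.7, 8.33 and 6.22 CPM (1.32 ± 0.36, adjusted p = 0.702 by edgeR). Sparc, a collagen-binding matrix protein, was at 38.0, 41.8, 52.8 and 29.5 CPM and at 53.0, 64.0, 76.0 and 51.8 CPM (0.59 ± 0.19, adjusted p = 0.702 by edgeR). Timp3 and Acta2 did not overlap between the groups, while Sparc did. Col1a2 (0.85) and Postn (1.20), named after their values were seen, were the other higher targets with an unadjusted p under 0.05. Without liver shNT replicate 4 the differences were 0.62 for Timp3, 1.45 for Acta2, 0.45 for Sparc, 0.67 for Col1a2 and 1.16 for Postn.

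The liver markers of fibroblasts and stellate cells moved with these genes: 6 of the 7 (Pdgfrb, Des, Lrat, Reln, Lum and Rgs5) had a higher mean in shFOS, 4 of the 7 did not overlap, beside 2.79% of all genes that were higher without overlap, and the median log2 difference of the 7 was 0.53. Their part in the Ltbp and target values was not tested. The remaining lists gave little in liver. Fkbp1a, which binds the type I receptor and keeps it quiet, had 0.23 ± 0.10 (unadjusted p = 0.0480, adjusted p = 0.726 by edgeR) and was the only Smad regulator with an unadjusted p under 0.05. Tgif1 (-0.19) and Tgif2 (-0.42) had adjusted p of 0.728 each by edgeR. Tgif1 was lower in every shFOS library, at 17.1, 17.9, 16.2 and 17.0 CPM against 18.2, 18.7, 21.8 and 18.8 CPM in shNT. Such a lower level without overlap held for 1.52% of all genes. Eng (0.18), Acvrl1 (-0.63), Bmpr2 (-0.11), Smad9 (0.41), Smad4 (-0.12) and Smad6 (-0.29) had adjusted p between 0.730 and 0.840 by edgeR. The αvβ8 and αvβ6 integrin chains Itgb8 and Itgb6 and the target Cdkn2b were too low to be tested in liver.

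**Figure D5:**
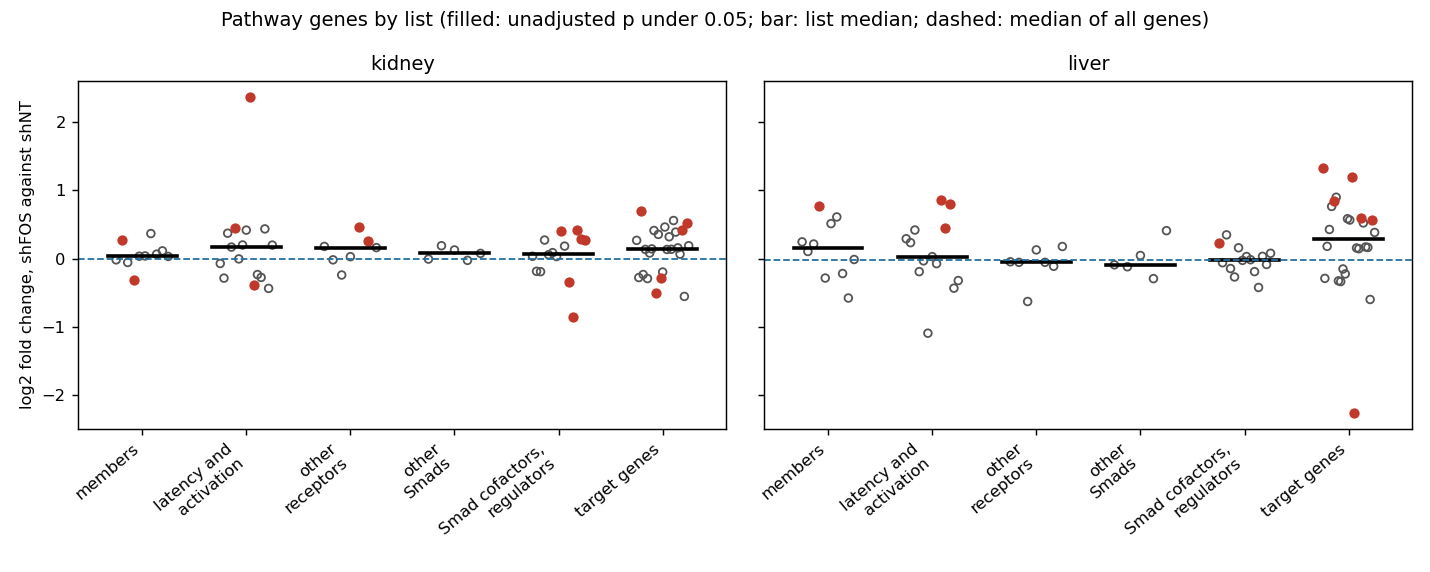
Log2 fold change of shFOS over shNT (vertical axis) for every tested gene of the 10 and of the 5 further pathway lists, in kidney (left) and liver (right), with filled points for an unadjusted p under 0.05, a bar for the list median and a dashed line for the median of all genes. The highest kidney point is Itgb8 at 2.37 and the highest liver point is Acta2 at 1.32.

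Within groups some of the genes varied together and others in opposite directions. This was read as a description over the 8 libraries of a tissue, after subtracting each group's mean from log2 CPM. Few points stand behind each value, and the part of shared cell make-up was not tested. In kidney Tgfb1 followed Smad3 (Pearson r = 0.90, and 0.40 in liver), and the gene most like either of them outside the 10 had r = 0.997: Lmcd1 for Tgfb1 and Dock2, a gene of leukocyte migration, for Smad3. In liver the gene most like Tgfb1 was again Dock2 (r = 0.994), that most like Smad7 was Ctns (r = 0.979) and that most like Tgfb3 was Hivep3 (r = 0.980). Tgfb1 and Tgfb3 had r = 0.76 in kidney and 0.78 in liver, and Tgfb2 followed Smad3 in liver (r = 0.94, and 0.27 in kidney). Tgfbr3 ran against Tgfb1 (r = -0.83) and Smad3 (-0.85) in kidney and against Tgfb2 (-0.91) and Smad3 (-0.89) in liver, and Tgfbr1 ran against Ltbp1 in kidney (-0.81). Kidney shNT replicate 4 had the lowest Tgfb1 (21.8 CPM) and Smad3 (56.6) and the highest Tgfbr3 (52.0) of the kidney libraries. Liver shNT replicate 4 had the lowest Tgfb2 (0.423 CPM, 8 reads) and Smad3 (11.5) and the highest Tgfbr3 (10.6) of the liver libraries. How far the r values of these genes rest on replicate 4 was not tested. The most similar gene is the best of the 13144 or more genes tested in a tissue, and its r was 0.959 or higher for all 10 genes in both tissues.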

How the data were processed

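Total RNA of kidney and liver was sequenced in 16 libraries, grouped by tissue and hairpin from the labels. The deposited files hold raw counts of reads per gene, which the authors made, per the labels, with Trimmomatic 0.39, HISAT2 2.2.1 and HTSeq 0.12.4 on mm10. The 5 summary lines of HTSeq were left out. They hold reads in no gene (13.4% to 26.7% of all reads in a file, gene and summary lines together) and ambiguous reads (1.84% to 2.64%), and the authors counted without regard to strand, so a gene and an antisense or overlapping partner cannot be told apart.

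edgeR 4.0.16 (R 4.3.3) was run on the counts with filterByExpr, TMM scaling, robust dispersions and the quasi-likelihood test, once per tissue for shFOS against shNT and once over 16 libraries for the interaction and the tissue contrast. BH adjustment covered all genes tested, with a threshold of 0.05. Standard errors were taken as the log2 fold change over the square root of F. The scripts were tested on simulated data. DESeq2 1.42.0, upper-quartile scaling, other filters on low counts (none, or a mean of at least 10), corrections for GC content and length, a fit of 16 libraries, a replicate block and leaving out each library were tried as alternatives, and scaling by library totals, ligand shares of the tissues without each library and a permutation with both tissues relabelled together were added after seeing the data. Exact permutation tests were two-sided over 70 assignments of 8 libraries. Lengths came from the basic annotation of GENCODE M21 and promoters from RefSeq on GRCm38.p6.

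Between 14194543 and 18300277 reads were counted per library, so that 3 reads, the level a count of 0 cannot exclude, correspond to 0.164 to 0.211 CPM. This covers counting error only. No replicates were alike within sampling noise (chi-square per degree of freedom of 7.17 or more). Same-numbered kidney and liver libraries of shNT deviated together (correlations of 0.115 to 0.326). Those of both treatments were taken as paired in the blocked tissue contrast and interaction. The shFOS libraries deviated together less (0.039 to 0.147), and those of shNT and shFOS within a tissue did not (-0.24 to 0.11). The labels do not state the pairing.

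The 10 genes were given by name, and the 5 pathway lists and the marker lists were compiled for this work. All were chosen with earlier results of these data known. Named beyond the 10 were Fos, the 3 genes of each list with the smallest unadjusted p in each tissue, and the gene most like each of the 10. Other genes are said to be named after their values were seen. A gene of the target list is counted with its list and not reported here by itself.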

Additional observations from a re-analysis of the deposited data

Results flagged for a closer look

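Of 52 groups of 4 libraries examined, 3 had a library far from the others by Dixon's test at its 95% level, where chance gives about 1 in 20 (2.6). Tgfb3 was at 9.30 CPM in kidney shFOS replicate 2 and at 5.22 to 5.57 CPM in the other 3. Tgfbr3 was at 49.4 CPM in kidney shFOS replicate 1 and at 39.6 to 40.5 CPM in the other 3, and at 52.0 CPM in kidney shNT replicate 4 and at 36.5 to 39.1 CPM in the others. Of 10 genes tested for a different response in the tissues, Smad7 was singled out: its kidney response minus its liver response was -1.09 on the log2 scale (exact permutation p = 0.000408, the smallest the 4900 assignments can give), and its adjusted p by edgeR's quasi-likelihood test was 0.180. The 4900 assignments take the tissues as independent. With same-numbered libraries of a group taken as the same mouse, the exact permutation p was 0.0286.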

How the results depend on the processing

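With 4 libraries per group, adjusted p rested on single libraries and on the tool. For shFOS against shNT in kidney the called members numbered 1 and the called genes 2663 with DESeq2, and 987 genes with all 16 libraries in 1 fit, against 0 with edgeR. Leaving out a library gave 0 to 2 members and 0 to 4173 genes, the highest without shFOS replicate 1 and 3 genes without shNT replicate 4. In liver DESeq2 called 36 genes. The interaction gave 1 member and 282 genes with DESeq2 and, leaving out a library, 0 to 1 members and 0 to 1230 genes. Members with an exact permutation p under 0.05 numbered 1 to 2 in kidney and 0 to 1 in liver, and 4 against 3 libraries leave few p to reach. The cause of these shifts was not tested.

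Liver ligand shares, leaving out a library, differed by -6.07 to -4.78 points for Tgfb1, 0.831 to 1.90 for Tgfb2 and 3.59 to 4.73 for Tgfb3. The Tgfb2 share passed without shFOS replicate 1 (1.90 points, exact permutation p = 0.0286), and the Tgfb3 share did not pass without shNT replicate 2 (p = 0.0571) or 3 (p = 0.0857). Kidney shares ran from -2.43 to 0.805 for Tgfb1, -1.63 to 0.661 for Tgfb2 and 0.717 to 1.77 for Tgfb3. The tissue shares, kidney minus liver, ran from -10.1 to -6.90 points for Tgfb1, 6.94 to 9.23 for Tgfb2 and -0.0363 to 0.919 for Tgfb3.

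Small kidney differences turned their sign without passing. With upper-quartile scaling Tgfb1 was at -0.020, Tgfb2 at -0.013 and Tgfbr3 at -0.018 (percent differences of -1.40, -0.945 and -1.28). With the GC correction Tgfb2 was at -0.051, Tgfbr1 at -0.13, Tgfbr3 at -0.028, Smad3 at 0.0027 and Ltbp1 at 0.025. With GC and length Tgfb2 was at -0.11, Tgfbr1 at -0.19, Tgfbr2 at -0.0051 and Tgfbr3 at -0.10. In the interaction Tgfbr3 was at -0.0095 with upper-quartile scaling and -0.054 with GC and length, and Smad2 at -0.027 with GC and length. In the tissue contrast Tgfb1 was at -0.51 and -0.47 with GC and with GC and length. Smad2 was at 0.12 with upper-quartile scaling, 0.10 between the shFOS groups and 1.01 with library totals, and Smad7 at -0.56 between the shFOS groups. Tgfb2, Tgfbr1, Tgfbr2, Tgfbr3, Smad3 and Ltbp1 were called between tissues in 26 of 26 alternatives.

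Leaving out a library, kidney log2 differences ran from -0.16 to 0.19 for Tgfb1, -0.043 to 0.13 for Tgfb2, -0.088 to 0.16 for Tgfbr3 and -0.21 to 0.086 for Ltbp1. Percent differences of the means ran from -10.6 to 14.5, -3.02 to 9.70, -3.17 to 11.7 and -11.2 to 5.97. Liver values ran from -0.48 to 0.037 for Tgfb1 (percent -27.8 to 2.72) and -0.12 to 0.23 for Tgfbr3 (percent -8.16 to 17.8). Interactions ran from -0.0054 to 0.50 for Tgfb1 and -0.22 to 0.20 for Tgfbr3, and tissue contrasts from -0.13 to 0.37 for Tgfb1 and -0.076 to 0.0057 for Smad2.

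With the replicate block, the shNT tissue contrast of paired libraries called 7 members and 10220 genes. In the treatment fits the numbers name no pairs: blocked, kidney Smad2 was at 0.27 (adjusted p = 0.159 by edgeR) and Smad7 at -0.32 (0.149), liver Tgfbr3 turned to 0.030, and 0 genes were called in either tissue, as without the block. The blocked interaction paired same-numbered kidney and liver libraries of each treatment, and there Tgfbr3 turned to -0.0017.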
